A study of Mus musculus with 8 samples.

Results

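The cytosolic ribosomal protein genes were taken from the count table by their symbols, as the entries named Rpl or Rps followed by a number (with an optional letter or further number), Rplp0, Rplp1, Rplp2 and Rpsa. Rps6 kinases and entries marked as pseudogenes by a -ps suffix were left out. The rule found 86 genes among 27179 entries. They comprised 43 genes of the large subunit, 31 of the small subunit, 3 of the stalk, 7 paralogs of a member and 2 copy-like entries (Rpl6l and Rpl32l). Of these, 82 passed the filter on low counts and were tested. Rpl3l, Rpl10l and Rpl39l did not pass it, and Rps4l, which RefSeq classes as a transcribed pseudogene, is not among the deposited log2 values.

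The genes were measured in EpCAM-positive cells that had been isolated by flow cytometry from tumors of the gastric antrum, with 1 library for each of 4 gp130FF; Yap1WT and 4 gp130FF; Yap1 flox/flox (Yap1KO) mice. All 8 mice carry the gp130FF mutation of the IL-6 family receptor, which gives rise to gastric tumors, and the labels put all of them at 18 weeks of age and 3 days after tamoxifen. The study's text instead describes vehicle for Yap1WT mice and also gives an older age. In Yap1KO mice, tamoxifen activates a Cre recombinase under the control of Tff1, a gene of foveolar surface mucous cells, which removes exon 3 of Yap1, the transcriptional coactivator restrained by the Hippo pathway. Cells without Tff1 promoter activity in the sorted fraction keep the gene.

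The cytosolic ribosome makes nearly all cellular protein. Its large and small subunits are built in the nucleolus and cytoplasm from ribosomal RNA and about one copy each of the ribosomal proteins. Many mRNAs of these proteins begin with a C followed by a run of pyrimidines, the 5′ terminal oligopyrimidine (TOP) motif, through which mTOR and LARP1 control their translation. Ribosomal protein genes are also known for their many processed pseudogenes, which complicate read assignment.

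Yap1 was first examined as a check of the labels. It had 78.0, 64.9, 78.9 and 73.4 CPM (counts scaled to the library size, with TMM factors) in the Yap1WT libraries and 21.5, 27.9, 30.01 and 24.5 CPM in the Yap1KO libraries. The groups did not overlap, with a log2 fold change of -1.51 (SE 0.13, adjusted p = 0.000209, edgeR quasi-likelihood F test). Reads were counted over the whole gene, not exon 3 alone. The Yap1WT libraries held 27607755 to 77483047 counts each, and the Yap1KO libraries held 18229945 to 74278015. Among markers of other cell types, 2 of 10 endothelial genes were called higher in Yap1KO by edgeR, beside 3.52% of all tested genes. DESeq2 called 5 of the 10 higher and limma-voom 8, beside 10.7% and 7.07% of all tested genes in either direction. All 10 were above 0 (median log2 fold change 1.32), 9 of them at an unadjusted p under 0.05, with a summed level of 186 to 679 CPM in Yap1WT libraries and 631 to 1248 CPM in the Yap1KO libraries. Summed fibroblast markers ranged from 166 to 960 CPM in Yap1WT and from 456 to 1426 CPM in Yap1KO, with 0 of 10 called by edgeR or DESeq2 and 1 at an unadjusted p under 0.05. Their fitted values lay above 0 for 9 and below for 1 (median log2 fold change 1.04). The intervals were wide, with 0 of 10 inside 2-fold in either direction. Also called higher were 1 of 5 macrophage and dendritic cell markers, the 1 B and plasma cell marker tested and 1 of 10 dissociation stress genes. The macrophage and dendritic cell markers did not rise as a list: 4 of the 5 were fitted below 0 (median log2 fold change -0.31). The genotypes overlapped in the summed level of this list. T and NK cell markers summed to at most 0.862 CPM in any library. Of 11 foveolar markers tested, 9 had fitted values below 0 and 2 above (median log2 fold change -0.67). EdgeR and limma-voom each called 3 of them lower in Yap1KO and 1 higher, and DESeq2 called 5 lower and 2 higher. Over all tested genes, edgeR called 2.34% lower and 3.52% higher, and the shares of DESeq2 and limma-voom are those given above. The part of these cell types in the results below was not tested. In bulk RNA, fewer cells of a type cannot be told apart from less RNA per cell.

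The start of the annotated mRNA shows the TOP motif in some of the genes. RefSeq starts (GRCm38.p6) were at hand for 64 of the 86 genes, with 76 entries. A C at the annotated first base followed by at least 4 C or T bases, read on the transcribed strand only, was present in 14 entries (18.4%), against 823 of all 32851 promoter entries (2.51%). Within 5 bases of the annotated start, such a run began in 32 entries (42.1%) against 18.3% of all entries. Below, 15 bases before and 15 bases from the annotated start are given for some members named in the text, with the run in capitals. They show genes with and without the motif at this position, but not in proportion. Other named members without a run at the start, such as Rpl5 and Rpl41, are not shown. The match describes the letters at an annotated start only.
Rps6 (chr4:86857353-86857382, minus strand): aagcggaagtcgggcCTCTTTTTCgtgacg
Rplp2 (chr7:141447636-141447665, plus strand): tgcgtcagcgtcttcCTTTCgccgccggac
Rpl14 (chr9:120571502-120571531, plus strand): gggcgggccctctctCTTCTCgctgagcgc
Rpl38 (chr11:114668565-114668594, plus strand): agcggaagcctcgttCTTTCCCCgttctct
Rps27 (chr3:90213634-90213663, minus strand): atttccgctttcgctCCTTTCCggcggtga
Rplp0 (chr5:115559452-115559481, plus strand): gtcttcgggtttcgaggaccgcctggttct
Rpl11 (chr4:136053379-136053408, minus strand): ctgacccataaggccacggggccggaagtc
Rpsa (chr9:120127751-120127780, plus strand): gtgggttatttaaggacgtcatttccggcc

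None of the 82 genes tested was called between Yap1KO and Yap1WT at an adjusted p under 0.05 by edgeR, 0 higher and 0 lower, beside 5.86% of all 13507 tested genes (3.52% higher and 2.34% lower). DESeq2 and limma-voom also called 0 of the 82, beside 10.7% and 7.07% of all genes. At an unadjusted p under 0.05, edgeR gave 3 genes higher and 0 lower, or 3 of 82 beside 20.4% of all genes (11.5% higher, 8.96% lower). The median log2 fold change of the 82 genes was 0.05, with 48 above and 34 below 0, beside -0.01 over all tested genes. Fitted values ran from -0.33 to 0.40 (Rps27l). The large subunit (median 0.05, 25 of 43 above 0) and the small subunit (median 0.04, 18 of 31 above 0) had nearly equal medians.

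The 95% intervals set how large a difference these libraries leave possible. They lay within 1.5-fold in either direction for 42 of the 82 genes and within 2-fold for 77. Among the widest intervals were those of genes with few reads, such as Rpl38 (-1.72 to 1.25) and Rpl39 (-1.43 to 1.52). Rpl22l1 also had a wide interval (-1.02 to 0.66), at 10.6 to 37.0 CPM with a wide spread within each genotype. Differences of these sizes were not detectable for such genes in these libraries. The lowest adjusted p was 0.183, for Rpl23.

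**Figure D1:**
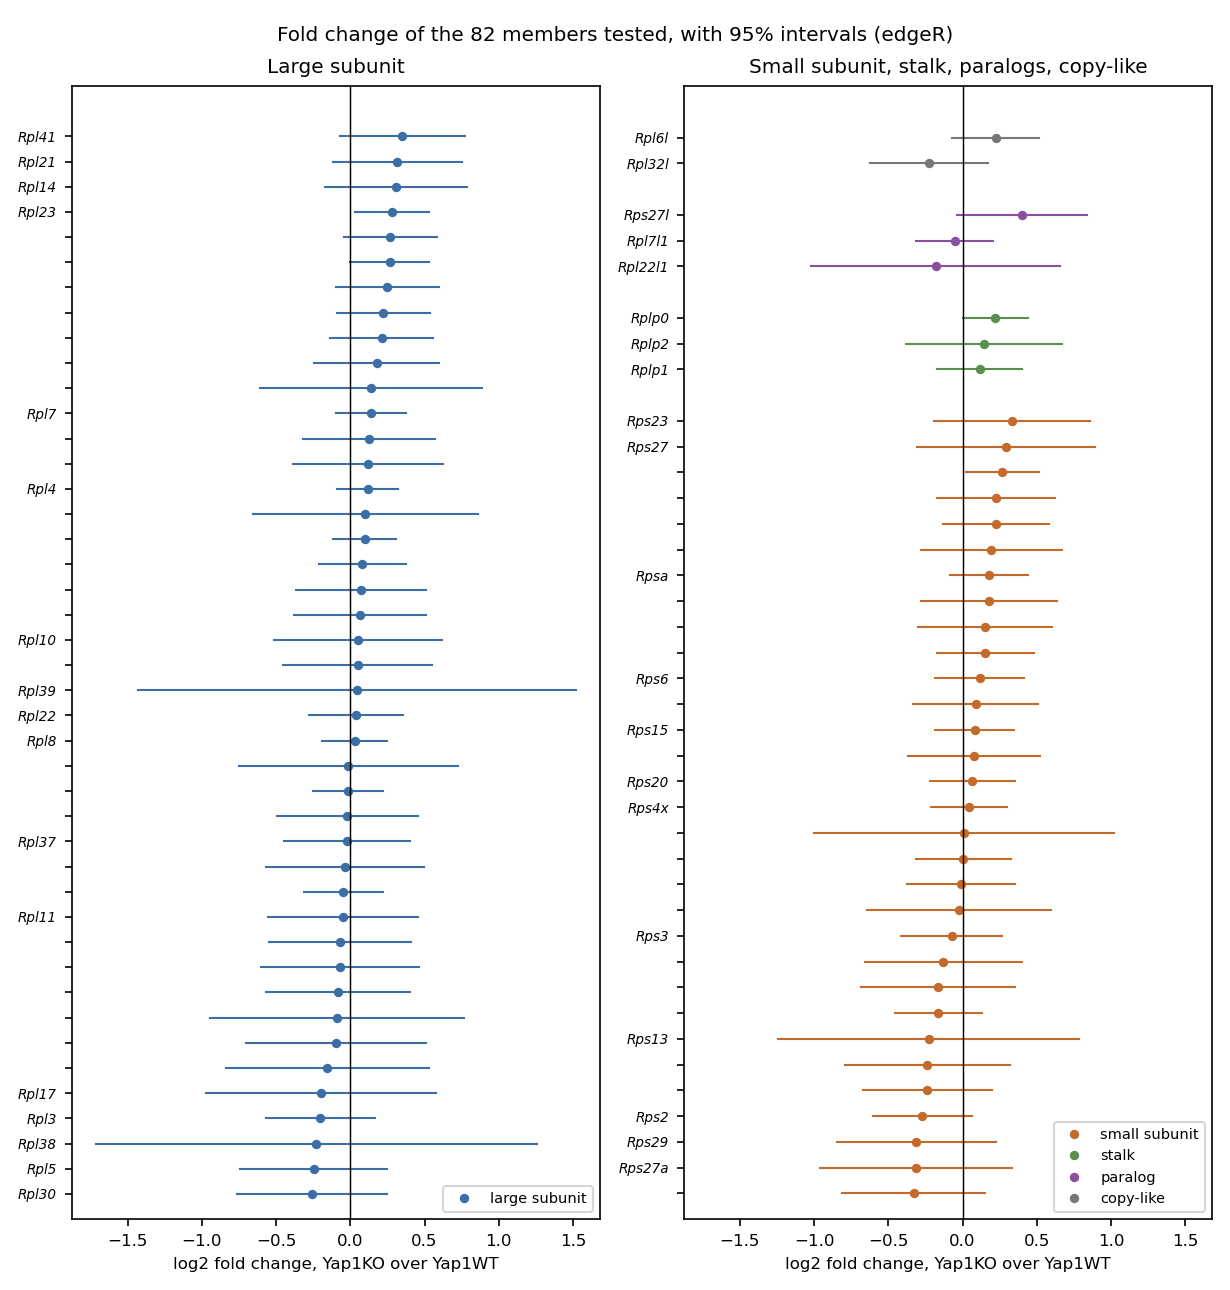
Log2 fold change of Yap1KO over Yap1WT for each of the 82 genes tested (points, with names for the genes described in the text) with its 95% interval (lines), from edgeR on 4 libraries per group, in panels for the large subunit and for the small subunit, stalk, paralogs and copy-like entries. Points run from -0.33 to 0.40, and 79 of the 82 intervals include 0.

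Rpl23, one of the 3 genes with an unadjusted p under 0.05, fell outside the rule for named genes and was chosen after its values were seen. This protein of the large subunit, which also binds MDM2, had 51.9, 50.8, 45.5 and 42.0 CPM in Yap1WT and 49.98, 61.5, 63.5 and 56.5 CPM in Yap1KO. The groups overlapped by 1 Yap1KO library, with a log2 fold change of 0.28 (95% interval 0.03 to 0.53, adjusted p = 0.183, edgeR). None of the 3 passed the adjusted threshold.

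The groups did not overlap in CPM for 2 of the 82 genes, Rplp0 and Rpl4, beside 13.2% of all tested genes. Rplp0, the base of the ribosomal stalk that recruits translation factors, had 1046, 997, 887 and 957 CPM in Yap1WT and 1072, 1134, 1138 and 1181 CPM in Yap1KO. All 4 Yap1KO libraries lay above the highest Yap1WT library, by a small margin relative to the level. The log2 fold change was 0.22 (SE 0.10, adjusted p = 0.246, edgeR). Rpl4, a large subunit protein that was also chosen after its values were seen, had a log2 fold change of 0.12 (SE 0.09, adjusted p = 0.533).

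The other stalk genes had overlapping groups. Rplp1 had 548 to 657 CPM in Yap1WT libraries and 517 to 712 CPM in the Yap1KO libraries, a log2 fold change of 0.11 (95% interval -0.17 to 0.40). Rplp2, its partner in the acidic dimers of the stalk, had 17.3 to 29.99 CPM in Yap1WT libraries and 19.5 to 36.7 CPM in the Yap1KO libraries, a log2 fold change of 0.14 (95% interval -0.38 to 0.67). All 3 fitted values of the stalk were above 0, and 0 of 3 was called or had an unadjusted p under 0.05.

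The genes with the largest fitted values above 0 were Rps27l, Rpl41, Rps23, Rpl21 and Rpl14. Rps27l, a paralog of Rps27 known as a p53 target, had 72.8, 134, 102 and 73.6 CPM in Yap1WT and 104, 146, 130 and 127 CPM in Yap1KO. The 2 highest Yap1WT libraries lay within or just under the Yap1KO range, and the other 2 lay below it. The log2 fold change was 0.40 (SE 0.20, 95% interval -0.03 to 0.84, adjusted p = 0.292, edgeR). Rpl41, the smallest protein of the large subunit, had 181, 168, 128 and 134 CPM in Yap1WT and 144, 266, 197 and 172 CPM in Yap1KO (log2 fold change 0.35, adjusted p = 0.341). Yap1KO replicate 2 was the highest of the 8 libraries for Rpl41, Rps23, Rpl21 and Rpl14 alike. Rps23, a protein of the decoding centre, had 15.4 to 20.8 CPM in Yap1WT libraries and 16.1 to 33.8 CPM in the Yap1KO libraries (log2 fold change 0.33, adjusted p = 0.486).

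The genes with the largest fitted values below 0 included Rps27a, Rps29, Rps2 and Rpl30. Rps27a, which is made as a fusion with ubiquitin, had 13.0, 24.5, 14.6 and 13.3 CPM in Yap1WT and 8.14, 16.1, 17.9 and 10.4 CPM in Yap1KO (log2 fold change -0.31, adjusted p = 0.606). With the counts of its pseudogene copy added, which holds 10.2 times its counts, the value was 0.00. The value of Yap1WT replicate 2 stood well above the other 3 libraries of its group. Rps2, at the mRNA entry side of the small subunit, had 454 to 739 CPM in Yap1WT libraries and 453 to 570 CPM in the Yap1KO libraries (log2 fold change -0.27, adjusted p = 0.359).

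Members with roles outside the ribosome were read separately. Rpl5 and Rpl11 bind MDM2 as a complex with 5S rRNA when ribosome assembly is disturbed. Rpl5 had 13.2, 16.9, 14.1 and 10.4 CPM in Yap1WT and 7.59, 12.8, 13.9 and 11.8 CPM in Yap1KO (log2 fold change -0.25, 95% interval -0.75 to 0.25). Rpl11 had 5.65 to 9.07 CPM in Yap1WT libraries and 5.47 to 7.93 CPM in the Yap1KO libraries (log2 fold change -0.05, 95% interval -0.55 to 0.46). Neither was called. Rps6, the substrate of the S6 kinases, had 70.8, 72.7, 60.9 and 66.1 CPM in Yap1WT and 66.1, 92.3, 74.6 and 59.97 CPM in Yap1KO (log2 fold change 0.12, 95% interval -0.18 to 0.42). Rpsa, which is also known as a laminin receptor, had 162 to 212 CPM in Yap1WT libraries and 177 to 227 CPM in the Yap1KO libraries (log2 fold change 0.18, 95% interval -0.08 to 0.44).

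The genes moved together from library to library, in both genotypes. For each gene, log2 CPM was set against its mean over the 8 libraries, and the median over the 82 genes was taken per library. This median was -0.01, 0.27, -0.13 and -0.19 in the Yap1WT libraries and -0.23, 0.32, 0.17 and -0.15 in the Yap1KO libraries. Yap1WT replicate 2 and Yap1KO replicates 2 and 3 were high, with 69, 77 and 74 of the 82 genes above their mean, while only 10 were in Yap1KO replicate 1 and 12 in Yap1WT replicate 4. The group means of this median were -0.02 ± 0.20 in Yap1WT and 0.03 ± 0.26 in Yap1KO (SD, n = 4), so that the spread within a genotype exceeded the difference between them. Over all tested genes the median stayed between -0.01 and 0.03 in every library.

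**Figure D2:**
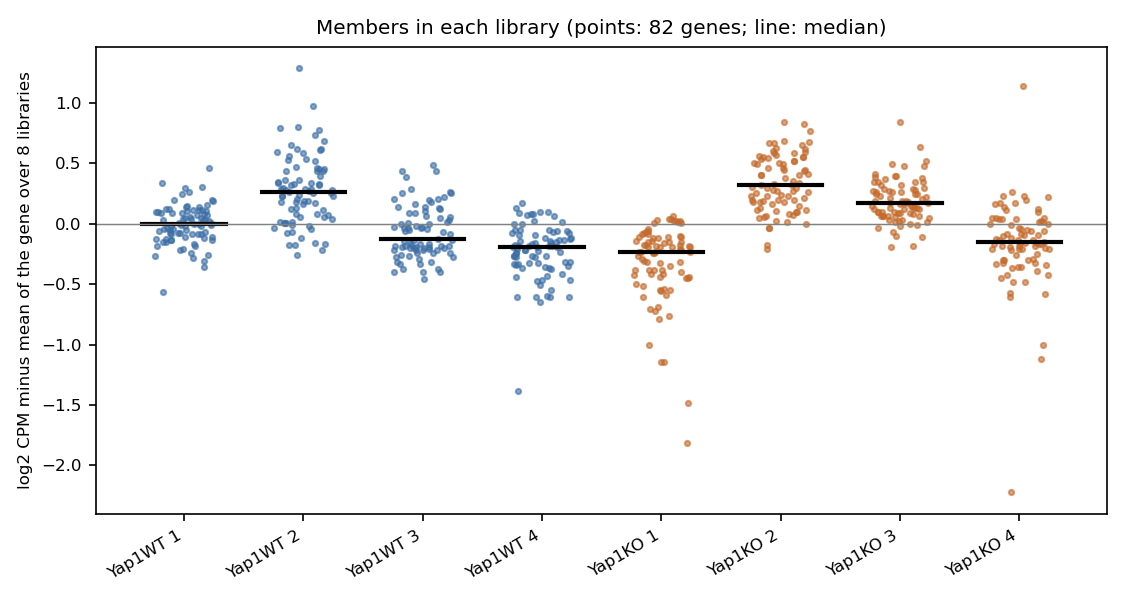
Log2 CPM of each of the 82 genes minus its mean over 8 libraries (points), by library, with the median over genes as a line. Libraries of both genotypes lie on both sides of 0, with medians from -0.23 in Yap1KO replicate 1 to 0.32 in Yap1KO replicate 2.

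Within a genotype, the deviations of 2 members from their group means correlated with a median Pearson's r of 0.64 over all pairs, and 95.2% of pairs were positive. The same median was 0.53 for 77 mitochondrial ribosomal protein genes and 0.00 over all tested genes. Among the 11 members with under 10% of their sequence shared with other genes (measured as described below), it was 0.47. These values rest on 8 libraries, and the pairs share library, depth and scaling, so they describe these libraries only. The 2 libraries with the highest medians, Yap1WT replicate 2 and Yap1KO replicate 2, also had the highest summed foveolar markers (125031 and 109410 CPM, beside 77667 to 99352 CPM in the other 6, with 76979 CPM of the sum in Yap1KO replicate 2 from Tff2) and the largest share of counts in the 20 most abundant genes outside the group (24.1% and 23.8%, beside 17.7% to 20.6%). Yap1KO replicate 3, also high in the members (median 0.17), had only 90655 CPM of foveolar markers and a share of 18.0%. Between genotypes, 9 of the 11 foveolar markers tested had fitted values below 0. In Yap1KO replicate 2, Muc5ac had 16.9 CPM and Psca 55.7 CPM, the lowest of the 8 libraries. The part of the foveolar markers and of the most abundant genes in the shared movement was not tested.

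As a share of all counts of named genes, the 86 genes took up 1.24%, 1.37%, 1.25% and 1.19% in Yap1WT and 1.13%, 1.46%, 1.44% and 1.27% in Yap1KO. The groups overlapped, with means of 1.26 ± 0.076% and 1.33 ± 0.16% (SD, n = 4). The mouse numbers in the labels form a first and a second series with 2 mice of each genotype in each, and the labels do not say what the series are. The median difference of the members, Yap1KO over Yap1WT, was -0.07 within the first series and 0.17 within the second on the log2 CPM scale. In the second series the shares of counts did not overlap (1.19% and 1.25% against 1.27% and 1.44%), whereas in the first the Yap1KO libraries lay on either side of both Yap1WT libraries.

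The deposited log2 RPKM values, which are scaled to gene length and library size, set the levels of the members side by side. The median over the 82 genes was 6.34, beside 2.96 over all 13819 genes with such values, and the members spanned 0.47 to 10.36. Of the 82, 13 were among the 100 genes with the highest level, 44 among the highest 1000 and 7 below the median of all genes. The highest were Rplp1 (10.36), Rpl8 (9.98), Rps15 (9.88), Rps20 (9.69) and Rplp0 (9.59). The lowest were Rpl39 (0.47), Rps13 (2.15) and Rpl38 (2.51). As background to this spread, the proteins are present in about equal numbers in the mature ribosome, except for those of the stalk dimers.

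Many members share long stretches of sequence with other genes, and this went with the measured level. One mRNA per member (GENCODE M21, GRCm38, 85 of 86 genes) was cut into every window of 80 bases, the read length, and a window was counted as shared if it occurred exactly in a transcript of another gene on either strand. The share ran from 0%, as for Rps3, to 98.5% for Rps27. It depends on the mRNA chosen, which was 3706 bases long for Rps20 (6.42% shared). The 11 genes with under 10% shared had a median log2 RPKM of 8.71, the 31 genes with 10% to 50% shared had 6.72 and the 39 genes with 50% or more had 5.41. Across the 81 genes with both values, Spearman's rho was -0.51 and Pearson's r was -0.49, as a description over genes, which are not independent replicates. Exceptions stood on both sides. Rps2 had a high level of 9.09 with 69.9% shared, and Rpl39 had the lowest level with 5.82% shared. The fitted fold changes showed less of such a trend, with a rho of -0.18 and bin medians of 0.04, 0.11 and -0.02.

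**Figure D3:**
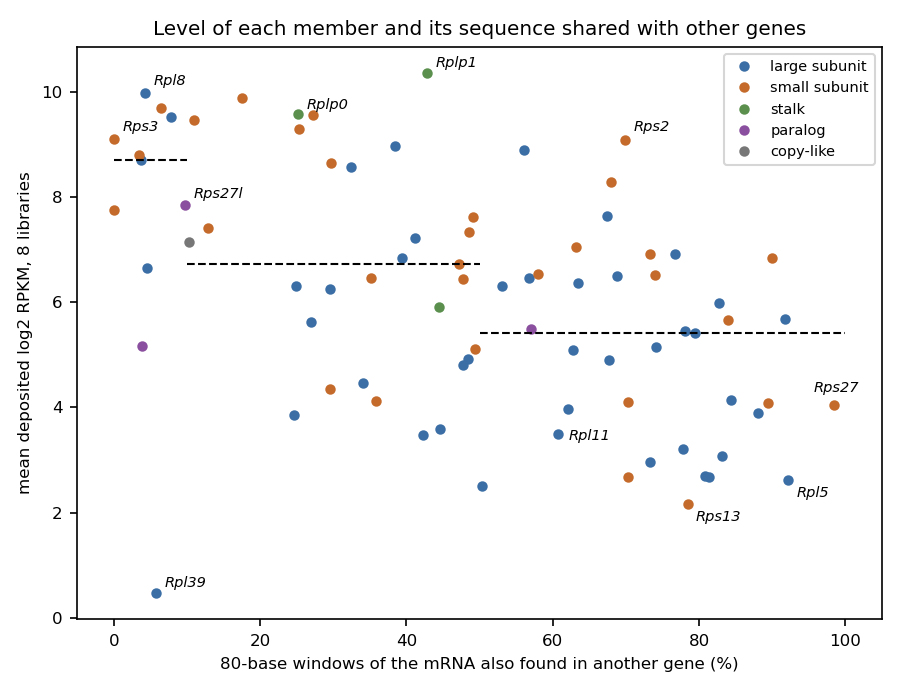
Mean deposited log2 RPKM over 8 libraries of each of 81 genes against the percent of 80-base windows of its mRNA that also occur in another gene. Dashed lines mark the medians of genes with under 10% (8.71), 10% to 50% (6.72) and at least 50% shared (5.41), with wide scatter in each range.

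The family of Rps27 shows how sequence identity and read assignment meet. Rps27 (chr3:90212667-90213648 in the RefSeq annotation of GRCm38.p6, as for the next 2 genes) encodes a small subunit protein, Rps27rt (chr9:114982366-114982739) is its retrotransposed copy in a single coding exon, and Rps27l (chr9:66944624-66949522) is its multi-exon paralog. The coding sequences of Rps27 and Rps27rt, without the stop codon, were identical over all 252 bases in GENCODE M21. Rps27l differed from Rps27 at 60 of 252 bases (76.2% identity). The first 60 coding bases of each are given below, with differences from Rps27 in capitals. For Rps27 and Rps27l they run across an intron, and the coordinates (GRCm38) are those of the first and last base.
Rps27 (chr3:90213248-90213615, minus strand): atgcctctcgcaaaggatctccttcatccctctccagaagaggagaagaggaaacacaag
Rps27rt (chr9:114982648-114982707, minus strand): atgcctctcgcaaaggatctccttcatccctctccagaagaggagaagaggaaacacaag
Rps27l (chr9:66946175-66946884, plus strand): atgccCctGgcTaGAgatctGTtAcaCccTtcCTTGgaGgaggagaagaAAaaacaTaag

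Most reads of the identical pair were assigned to the copy. Rps27 had 10.2, 11.3, 7.51 and 6.19 CPM in Yap1WT and 7.57, 14.4, 12.6 and 8.61 CPM in Yap1KO. Rps27rt had 348, 499, 356 and 304 CPM in Yap1WT and 276, 455, 401 and 385 CPM in Yap1KO, between 31.6 and 49.1 times the counts of Rps27 in each library. On the length-scaled log2 RPKM scale, the level of Rps27rt was 9.96 and that of Rps27 was 4.05. Rpl37 of the large subunit and its copy Rpl37rt gave a similar picture, with levels of 3.85 and 9.01 on the log2 RPKM scale. Neither pair was called between genotypes. The log2 fold change was 0.29 for Rps27 (adjusted p = 0.605) and 0.01 for Rps27rt (adjusted p = 0.987), and it was -0.02 for Rpl37 (adjusted p = 0.962) and 0.07 for Rpl37rt (adjusted p = 0.830, all edgeR). Given the identical sequence, the counts of Rps27 and Rps27rt are best read as uncertain one by one.

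**Figure D4:**
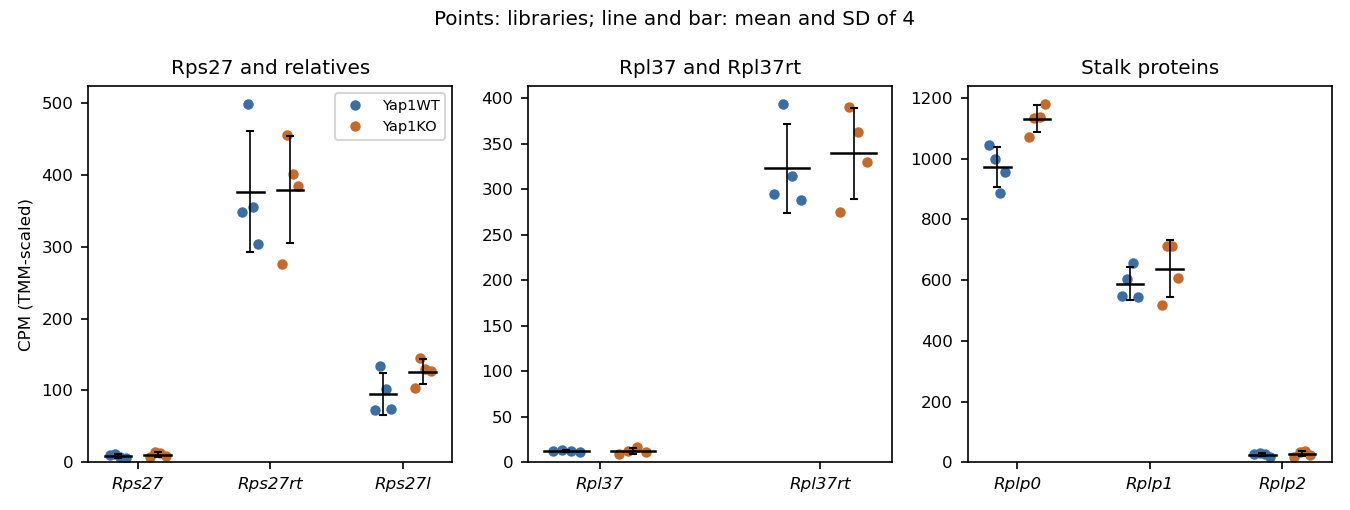
TMM-scaled CPM in each library (points) with the mean and SD of 4 libraries (line and bar) for Rps27, Rps27rt and Rps27l, for Rpl37 and Rpl37rt, and for the stalk genes Rplp0, Rplp1 and Rplp2, by genotype. Rps27rt lies at 276 to 499 CPM and Rps27 at 6.19 to 14.4 CPM, and Rplp0 is the gene whose groups do not overlap.

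In all, the table held 38 entries named as copies of 18 members (-ps, rt or rg1 symbols), chosen for this count after seeing the data. Of these, 14 had more counts than the member itself, as numbers of reads assigned and not as levels. Rpl17-ps10 held 17.9 times the counts of Rpl17, Rps13-ps4 12.8 times those of Rps13 and Rps27a-ps3 10.2 times those of Rps27a. The copies took up 0.158% to 0.216% of counts in Yap1WT and 0.147% to 0.221% in Yap1KO libraries. Of the 11 copies tested, 0 was called and 0 had an unadjusted p under 0.05 by edgeR. The other copies lay outside the main test, as pseudogenes without deposited log2 values or for low counts. They included abundant ones, such as Rpl17-ps10 (107 to 187 CPM, with overlapping groups). Rps19-ps3, alone among the untested copies, had groups that did not overlap (2.75 to 3.67 CPM in Yap1WT, 3.76 to 6.68 CPM in Yap1KO). It was picked out after its values were seen, and 13.2% of all tested genes had groups without overlap. With the counts of members and their copies summed, 0 of 82 members was called, and the value of Rps27 moved from 0.29 to 0.02. Only copies with -ps, rt or rg1 symbols were summed, so most members had none added. Some of these also share sequence, as Rpl21 did with 58 other genes and Rps2 with 47 (windows of 80 bases).

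The paralogs divided into expressed and nearly silent genes. Rpl22, a large subunit protein, had a level of 6.65 and its paralog Rpl22l1 of 5.49 on the log2 RPKM scale. Rpl22l1 had 22.8, 37.0, 25.4 and 13.6 CPM in Yap1WT and 14.9, 33.9, 27.5 and 10.6 CPM in Yap1KO, so that the groups overlapped over most of their range (log2 fold change -0.18, 95% interval -1.02 to 0.66). Rpl7l1, which acts in ribosome assembly, stayed between 75.4 and 105 CPM in all libraries (log2 fold change -0.05, 95% interval -0.31 to 0.21), and its parent Rpl7 between 404 and 528 CPM (log2 fold change 0.14). Rps27l had a level of 7.86, above the 4.05 of Rps27 on the same scale, but Rps27rt, whose reads cannot be told from those of Rps27, had 9.96.

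Rpl3l, known from heart and skeletal muscle, had 8 reads in all 8 libraries together, and its parent Rpl3 35380. Rpl10l, known from the testis, had 8 reads, all in Yap1WT replicate 2, beside 16571 for Rpl10. Rpl39l, likewise known from the testis, had 15 reads, 8 of them in Yap1KO replicate 4, beside 270 for Rpl39. No fold is given for these 3 genes. Rpl39 itself was the member nearest to the filter, with 42, 54, 45 and 11 reads in Yap1WT and 8, 20, 64 and 26 reads in Yap1KO. Rps4l had 34.3 to 42.7 CPM in Yap1WT libraries and 38.2 to 51.0 CPM in the Yap1KO libraries. When pseudogenes were kept it had a log2 fold change of 0.23 (95% interval -0.03 to 0.49, adjusted p = 0.311, edgeR). Its parent Rps4x had 157 to 200 CPM in Yap1WT libraries and 151 to 195 CPM in the Yap1KO libraries (log2 fold change 0.04).

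Other parts of the ribosome and of the translation machinery were examined in the same way. Of 6 further genes, among them Rack1, Fau, Rpl36al and the copies Rps27rt and Rpl37rt, 0 was called by edgeR and 0 had an unadjusted p under 0.05. Rack1, a scaffold on the small subunit, had 525 ± 63.8 CPM in Yap1WT and 590 ± 54.2 CPM in Yap1KO (SD, n = 4, log2 fold change 0.17). Of 22 other genes known for TOP mRNAs, mostly elongation and initiation factors, 0 was called and 1 (Eef1g, log2 fold change 0.25, adjusted p = 0.161) had an unadjusted p under 0.05, with a median of -0.02. Eef1g was the gene of this list whose groups did not overlap, with Yap1WT libraries at 119 to 143 CPM and those of Yap1KO at 145 to 165 CPM. Eef1a1, which brings aminoacyl-tRNA to the ribosome, had 3430 ± 432 CPM in Yap1WT and 3913 ± 78.0 CPM in Yap1KO (log2 fold change 0.19, adjusted p = 0.428). Among 9 hosts of small nucleolar RNAs, 0 was called, none had an unadjusted p under 0.05, and Gas5 had a log2 fold change of 0.02. DESeq2 and limma-voom also called 0 genes of these 3 lists.

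The genes that make ribosomes lay slightly below 0. Of 66 ribosome biogenesis genes, 1 was called lower and 0 higher by edgeR, beside 2.34% and 3.52% of all tested genes. At an unadjusted p under 0.05 the numbers were 8 lower and 0 higher. Their median log2 fold change was -0.14, and 58 of 66 were below 0, beside 6938 of all 13507 tested genes. How far the genes of this list move together from library to library was not measured, so the 58 are not independent observations. The gene called was Nmd3, the export adaptor of the large subunit. It had 46.1, 51.0, 50.3 and 52.2 CPM in Yap1WT and 32.4, 34.6, 41.4 and 40.3 CPM in Yap1KO, with groups that did not overlap (log2 fold change -0.43, adjusted p = 0.0477, edgeR). The call was lost when any library but Yap1KO replicate 3 was left out (7 of 8 cases), with adjusted p from 0.0139 to 0.138 over 21 alternatives. Of 14 RNA polymerase I genes (median -0.08) and 13 chaperones and importins of ribosomal proteins (median -0.11), 0 was called by edgeR, DESeq2 or limma-voom, and 0 had an unadjusted p under 0.05. Among the 77 mitochondrial ribosomal proteins tested, 0 was called by edgeR or limma-voom and 1 (Mrpl42, log2 fold change -0.39) by DESeq2, with a median of -0.14, and at an unadjusted p under 0.05 the numbers were 13 lower and 0 higher. Mrpl42 and Eef1g were picked out after their values were seen. These shares of lower genes stand beside 8.96% of all tested genes at that unadjusted threshold, and the difference between these lists and the cytosolic members was not tested.

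**Figure D5:**
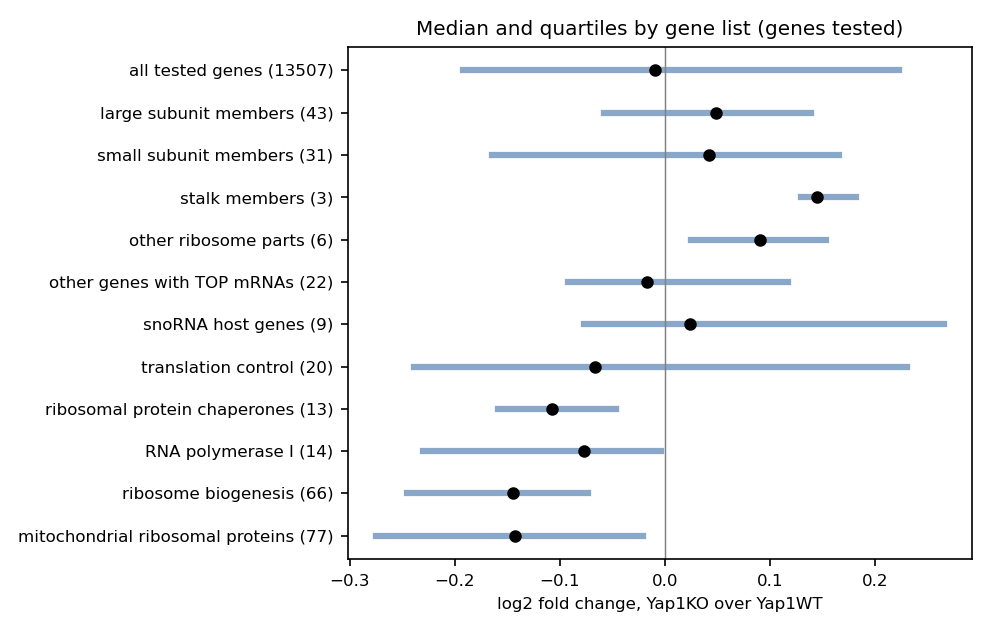
Median (point) and quartiles (bar) of the log2 fold change, Yap1KO over Yap1WT, for all tested genes, the members by subunit and the lists of ribosome and translation genes, with the number of genes tested. Medians lie between -0.14 for ribosome biogenesis and mitochondrial ribosomal proteins and 0.14 for the 3 stalk genes.

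Among 20 regulators of translation and ribosomal stress, 1 was called higher and 0 lower by edgeR, beside 3.52% and 2.34% of all tested genes. DESeq2 called 3 higher, limma-voom 1, and at an unadjusted p under 0.05 the numbers were 4 higher and 2 lower. The called gene was Mdm2, the ubiquitin ligase of p53 to which several free ribosomal proteins bind. It had 51.3, 51.4, 51.3 and 46.01 CPM in Yap1WT and 91.9, 66.1, 103 and 101 CPM in Yap1KO (log2 fold change 0.85, SE 0.14, adjusted p = 0.00539, edgeR). All Yap1KO libraries lay above all Yap1WT libraries, and it passed in each of the 21 alternatives. Larp1, the binding protein of TOP mRNAs, had 176 ± 31.5 CPM in Yap1WT and 136 ± 20.5 CPM in Yap1KO (log2 fold change -0.37, adjusted p = 0.203).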

How the data were processed

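RNA of EpCAM-positive tumor cells was sequenced by the authors as 80 bp paired-end reads from libraries without strand information. The deposited counts are whole numbers per gene, made by the authors with Subread on GRCm38/mm10 and featureCounts with its inbuilt RefSeq annotation, without normalization. How reads that map to several genes were treated is not given in the sources used here. The deposited log2 values are log2 RPKM, made by the authors with voom and quantile normalization, although their header reads FPKM. The study's text describes leaving out pseudogenes and genes with low counts first, yet 82 entries classed as pseudogenes have such values. The log2 values were used for levels, for the choice of pseudogenes to keep and for 1 alternative test. In the count table, 6 columns matched no sample and were not used. Entries without a name held 0.552% to 0.789% of the counts of a library and were left out.

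Counts were tested in R 4.3.3 with edgeR 4.0.16 (TMM, quasi-likelihood F test). Pseudogenes were left out (778 entries) unless they had deposited log2 values (82 entries kept). Benjamini-Hochberg adjustment ran over the 13507 remaining genes above 0.5 CPM in at least 6 libraries. With all pseudogenes kept, as 1 alternative, 13738 genes were tested. The script that fitted the counts was tested on simulated data. DESeq2 1.42.0, limma 3.58.1, other scaling factors, filters, blocks and leaving out each library were alternatives. The members and lists were chosen with earlier results of these data known. Beyond every called gene, the named genes are the 5 largest fold changes per direction, the 5 highest and 3 lowest levels, paralog pairs, untested members and a set of known ones. Of each other list, called genes or the most abundant are named. Results of some genes that this rule takes in are not reported here. Python 3.11.15 and matplotlib 3.10.9 drew the plots. Replicates are separate mice. The labels do not say that mice with the same replicate number are paired. Correlations for the same numbers were 0.03, 0.35, 0.05 and 0.15. Without values for unlike numbers they cannot show whether mice are paired.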

Additional observations from a re-analysis of the deposited data

Results flagged for a closer look

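In 3 of 78 groups of 4 libraries checked for the members named in the text, 1 library stood apart from the other 3 by more than Dixon's 95% critical value allows (its gap to the nearest library over the range of the group). About 1 in 20 such groups is marked by chance. Rps27a had 24.5 CPM in Yap1WT replicate 2, beside 13.0 to 14.6 CPM in the other Yap1WT libraries. Rpl10l had 0.188 CPM in Yap1WT replicate 2 and 0 in the others, and Rpl39l had 0.442 CPM in Yap1KO replicate 4 and 0 in the others, each from 8 reads.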

How the results depend on the processing

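Under 21 alternatives, of which 2 were added after seeing the data (pseudogenes kept, and members summed with their copies), 0 members were called in either direction. The lowest adjusted p was 0.0589, for Rps27l with a replicate block, where 3 members were higher and 3 lower at an unadjusted p under 0.05 and the median was 0.03. The median log2 fold change of the members was 0.02 to 0.07 in the other fits on all libraries. Leaving out each library in turn gave -0.05 (without Yap1KO replicate 2) to 0.15 (without Yap1KO replicate 1), so that the sign of the median rests on single libraries. The difference in the share of counts, 0.0662 percentage points, was 0.0829 without the 20 most abundant other genes, and 0.0198 to 0.132 with each library left out. Yap1 passed in every alternative, with log2 fold changes of -1.58 to -1.43 and a highest adjusted p of 0.00151. Nmd3 passed in 12 of the 21 alternatives, and not with library totals only (adjusted p = 0.0906, edgeR), with no filter on low counts (0.0599) or in 7 of the 8 fits that left out a library. Mrpl42 passed with DESeq2 (0.0484) and with the replicate block (0.0453). The groups share replicate numbers, but the labels do not say that these pair the mice. The replicate block raised the calls over all genes from 792 to 1306. With 4 mice per group, the intervals of 5 of the 82 members tested reach beyond 2-fold.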
